A study of Mus musculus with 39 samples.

Results

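The genes described here carry the names of proteins of the cytosolic ribosome. They were taken by symbol, as Rpl or Rps followed by a number (with an optional letter and digit), plus Rplp0, Rplp1, Rplp2 and Rpsa, with pseudogene names left out. The name rule matched 89 of the 53379 genes in the count table, and 83 of these had at least 1000 counts summed over the 39 libraries. Of the 83 members, 48 belong by name to the large subunit and 35 to the small subunit, and 4 have no coding length in the annotation. The 6 genes below the minimum were Rps12l1 and Rpl10l with 0 counts, Rpl3l with 110, Rpl32l with 199, Rpl39l with 476 and Rpl24 with 785. The members just above it were Rps3a2 with 1488 counts, Rps3a3 with 1626 and Rpl6l with 2152. Rpl24 encodes a standard large-subunit protein, and the annotation lists a second gene on its strand that overlaps it by 484 bases.

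RNA was sequenced from microglia, the resident macrophages of the brain tissue, and from border-associated macrophages (BAM), which live at the brain's boundaries such as the meninges. Both were sorted by flow cytometry from brains of untreated, time-mated C57Bl/6 mouse embryos. The microglia groups held 4 libraries at embryonic day E10.5, 3 at E11.5, 3 at E12.5, 2 at E14.5, 3 at E16.5 and 4 at E18.5, and the BAM groups held 4, 3, 3, 3, 3 and 4. The labels give no sort markers and do not say which embryos or litters were pooled, so the p-values below measure only the spread between these libraries.

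A ribosome is built from ribosomal RNA and a single copy of nearly every protein of its large and small subunits, and dividing cells spend much of their transcription on these parts. Transcripts of ribosomal protein genes are short and abundant. Many start with a run of pyrimidines, the TOP sequence, through which the kinase mTORC1 and the RNA-binding protein Larp1 adjust their translation. Several members have paralogues that are expressed in a limited set of tissues, and some ribosomal proteins also act outside the ribosome, such as Rpl5 and Rpl11, which bind the p53 regulator Mdm2.

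Start-site sequences show what the members share. RefSeq (GRCm38.p6) gave promoter windows for 59 of the 83 members, 70 windows in all, each from 250 bases before to 50 bases after an annotated start. A run of at least 6 C or T bases, on the gene's strand, lay between 10 bases before and 20 bases after the start in 39 member windows, or 55.7%. The same run was in 28.7% of all 32851 windows of 27025 genes. The motif CGGAAG, the core of an ETS-factor site, was found on either strand (as CGGAAG or CTTCCG, which can overlap a C/T run) in 43 member windows, or 61.4%, against 16.9% of all windows. A match describes the letters of the window and is no evidence of a factor or of translational control. The windows below run from 40 bases before to 20 bases after the start, 5′ to 3′ on the gene's strand, with the C/T run and any CGGAAG on that strand in capitals. The windows of Rps6, Rpl38, Rpl15, Rps26 and Rpl31 and the first of Rps27l hold a run and, on either strand of the full 300 bases, the motif. Values of all the members printed are described below.
Rps6, chr4:86857348-86857407, minus strand: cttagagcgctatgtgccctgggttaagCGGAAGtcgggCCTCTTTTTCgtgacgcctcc
Rpl38, chr11:114668540-114668599, plus strand: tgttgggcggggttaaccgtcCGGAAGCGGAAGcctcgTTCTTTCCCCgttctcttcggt
Rpl15, chr14:18270967-18271026, minus strand: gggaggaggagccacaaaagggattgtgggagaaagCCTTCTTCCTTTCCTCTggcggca
Rps26, chr10:128626487-128626546, minus strand: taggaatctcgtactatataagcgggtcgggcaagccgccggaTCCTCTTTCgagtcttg
Rpl31, chr1:39367811-39367870, plus strand: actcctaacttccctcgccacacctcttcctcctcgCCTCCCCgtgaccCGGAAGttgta
Rps27l, first start, chr9:66946046-66946105, plus strand: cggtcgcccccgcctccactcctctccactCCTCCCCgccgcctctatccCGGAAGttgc
Rps27l, second start, chr9:66946373-66946432, plus strand: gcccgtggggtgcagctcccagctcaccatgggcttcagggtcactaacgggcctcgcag
Rpl10a, first start, chr17:28328431-28328490, plus strand: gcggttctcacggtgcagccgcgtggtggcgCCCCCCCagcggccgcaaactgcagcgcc
Rpl10a, second start, chr17:28328525-28328584, plus strand: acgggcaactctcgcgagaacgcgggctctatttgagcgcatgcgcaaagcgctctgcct

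In the first Rps27l window the search began inside the C/T run, which goes on upstream in small letters. That run and the run of the first Rpl10a window end before the annotated start, so neither lies in the annotated transcript. The second Rps27l window held no run. The first Rpl10a window held a run of C bases only, the second held no run, and neither 300-base Rpl10a window held CGGAAG. The 37 members with a run and the 22 with a window but no run had close medians between E10.5 and E18.5, a comparison that was not tested. Their median log2 changes were -0.67 and -0.77 in microglia and -0.52 and -0.48 in BAM.

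The libraries held 10.7 M to 47.2 M counts. Their numbers fall into 2 series: R10 holds every E10.5 and E11.5 library and 1 E18.5 library of each population (16 libraries), and R8 holds the other 23. What the series are (a sequencing run, a preparation) is not stated, and since every E10.5 library is R10, the change from E10.5 to E18.5 was also fitted without the R10 or without the R8 libraries of E18.5 and with the series as a term. Without the R8 libraries both stages are of R10, with 1 library a population at E18.5, whose spread is assumed to be that of the other groups. For a named gene, the text says where its call was lost in any of these 3 fits. All 6 fixed microglia markers were lower and all 6 BAM markers higher in BAM at E18.5, which is the direction of the labels. Because the samples are bulk RNA, fewer cells of a type and less RNA per cell cannot be told apart.

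The members' summed counts, as a share of all gene counts in a library, were highest at E10.5. In microglia the E10.5 shares were 1.498%, 1.63%, 2.00% and 1.77%, and in BAM they were 1.25%, 1.59%, 1.97% and 2.12%. At E18.5 the shares were 0.901%, 1.17%, 1.27% and 1.09% in microglia and 1.07%, 1.39%, 1.41% and 1.34% in BAM. The microglia libraries of the 2 stages did not overlap, while the lowest BAM library at E10.5 lay within the E18.5 range. At E16.5 the shares ran from 1.08% to 1.21% in microglia and from 1.17% to 1.32% in BAM. The share at the stages in between, from E11.5 to E14.5, ran from 1.08% to 1.72% over both populations. These are differences of relative abundance within each library.

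**Figure D1:**
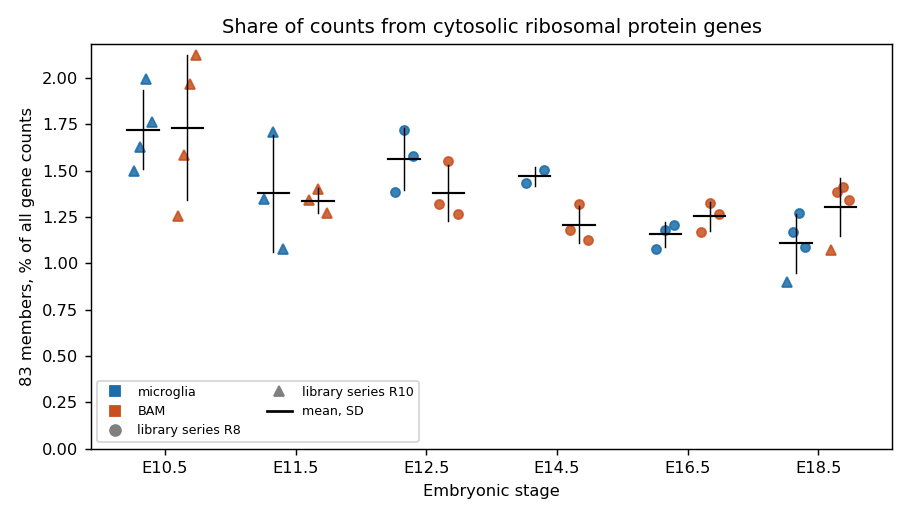
Summed counts of the 83 members as a percent of all gene counts, 1 point per library, by stage and population. Microglia lie at 1.498 to 2.00% at E10.5 and at 0.901 to 1.27% at E18.5, and the BAM points of the 2 stages overlap in 1 library.

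The stage with the highest group mean was E10.5 for 62 members in microglia and for 73 in BAM. In microglia the others peaked at E12.5 (8 members), E14.5 (11), E11.5 (Rps29) and E16.5 (Rpl10a), and none at E18.5. In BAM, 5 members had their highest mean at E18.5, among them Rpl22, Rps29, Rps3 and Rps4x. The lowest mean was at E16.5 or E18.5 for most members in microglia (41 and 35), whereas in BAM it was most often at E16.5 (28) or E14.5 (27). These orders of group means are a description and were not tested stage by stage.

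**Figure D2:**
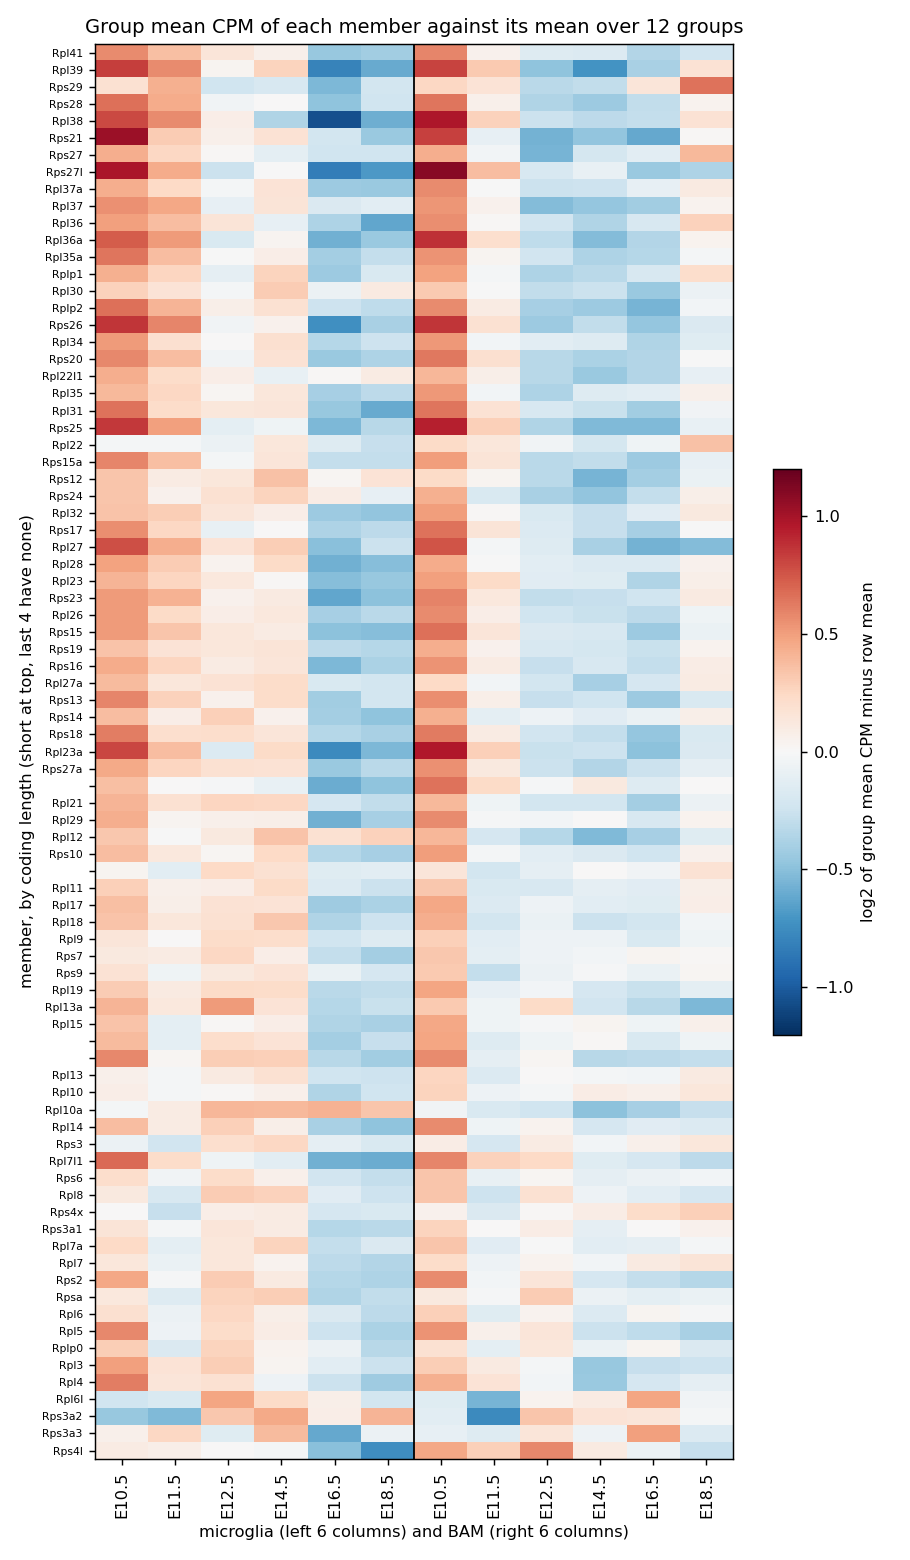
Group means of each member by stage and population, relative to the mean of that member over the groups, on a log2 scale. Most members are highest at E10.5 in both populations, and the microglia and BAM columns of Rpl10a part from E12.5 on.

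Between E10.5 and E18.5 most members fell in both populations. In microglia 57 of 83 members were lower at E18.5 and 1 was higher, with a median log2 change of -0.70. In BAM 45 were lower and none higher, with a median of -0.50, and 57 members had an unadjusted p below 0.05. The share of all genes with such a p is not given here. Of all 22061 genes tested, 14.4% were lower and 20.9% higher in microglia, and 14.8% lower and 22.8% higher in BAM. With all libraries the median over all genes was +0.29 in both populations, so relative to that median the members lay further down than their own values show. This offset depended on the series. In microglia and BAM it was 0.165 and 0.189 without the R10 libraries of E18.5, and 0 in both without the R8 libraries. With the series as a term it was 0.099 and 0.146. Calls are from edgeR's quasi-likelihood test with Benjamini-Hochberg adjustment over all tested genes, at 0.05. Both subunits took part: 33 large-subunit and 24 small-subunit members fell in microglia, and 25 and 20 fell in BAM. The lists shared 43 members, which is 75.4% of the microglia list and 95.6% of the BAM list, and 75 members had values below 0 in both. Matching shares over all genes are not given here, and every E10.5 library of both populations is of series R10.

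Among members whose average level reached log2 CPM 4, Rps27l fell most in both populations. Rps27l, a paralogue of the small-subunit protein Rps27 and a target of p53, had 31.8, 32.4, 39.3 and 23.3 CPM (counts scaled to a common library total) in microglia at E10.5 and 10.2, 9.82, 10.7 and 9.42 at E18.5. In BAM it had 37.6, 36.5, 30.8 and 32.4 CPM at E10.5 and 17.95, 10.48, 11.1 and 10.2 at E18.5. Every E18.5 library of Rps27l was below every E10.5 library of its population. The log2 change was -1.60 ± 0.19 (SE) in microglia (edgeR adjusted p = 3.07e-08) and -1.49 ± 0.19 in BAM (adjusted p = 9.48e-08).

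Rpl7l1, a paralogue of Rpl7 with a role in pre-ribosome maturation, had 256.5, 203.4, 244.7 and 265.8 CPM in microglia at E10.5 and 109.8, 84.2, 96.8 and 110.3 at E18.5. In BAM its values were 217.8, 241.4, 232.9 and 213.8 CPM at E10.5 and 126.9, 107.1, 135.3 and 117.5 at E18.5. The 2 stages did not overlap in either population. Its microglia change was -1.21 ± 0.13 (edgeR adjusted p = 3.74e-09).

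Rps25, a small-subunit protein used in initiation at internal ribosome entry sites, had 96.0, 82.9, 103 and 74.0 CPM in microglia at E10.5 and 47.0, 38.4, 43.9 and 27.3 at E18.5, a change of -1.12 ± 0.19 (edgeR adjusted p = 1.8e-05). In BAM it had 109, 96.2, 83.8 and 89.2 CPM at E10.5 and 68.0, 37.4, 45.7 and 34.4 at E18.5, a change of -1.05 ± 0.19 (adjusted p = 3.68e-05). All E18.5 libraries were lower, the R10 library in BAM by the least, and the BAM call was lost without the R8 libraries (-0.55, adjusted p = 0.157). The Rps25 exons overlap those of Trappc4 on the other strand by 462 bases, and since the library protocol does not mark strand, the reads of the pair cannot be told apart there.

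Rpl31, a protein near the exit of the large subunit's peptide tunnel, had 35.7, 36.9, 47.5 and 28.3 CPM in microglia at E10.5 and 16.8, 14.7, 15.8 and 14.8 at E18.5. The groups did not overlap, and the change was -1.19 ± 0.22 (edgeR adjusted p = 3.61e-05). Rpl31 overlaps Tbc1d8 on the other strand by 420 bases. Rps26, a small-subunit protein at the messenger RNA exit, changed by -1.18 ± 0.25 in microglia (adjusted p = 0.000253) and by -1.05 ± 0.24 in BAM (adjusted p = 0.000821). Both Rps26 calls were lost when the R8 libraries of E18.5 were left out and with the series as a term.

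In BAM the second largest fall was that of Rpl27, a large-subunit protein. It had 63.2, 54.8, 49.9 and 51.2 CPM at E10.5 and 27.2, 19.1, 22.6 and 21.3 at E18.5. The groups did not overlap, and the change was -1.31 ± 0.17 (edgeR adjusted p = 1.2e-07).

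Rpl5 and Rpl11 carry the 5S ribosomal RNA into the large subunit. Rpl5 had 441, 466, 542 and 578 CPM in microglia at E10.5 and 194.4, 299.2, 301.7 and 249.8 at E18.5. In BAM it had 316, 414, 581 and 665 CPM at E10.5 and 191.8, 284.9, 267.1 and 291.7 at E18.5. No library of Rpl5 overlapped between the 2 stages in either population. Rpl5 changed by -0.90 in microglia (edgeR adjusted p = 0.000114) and by -0.95 ± 0.18 in BAM (adjusted p = 4.93e-05). Rpl5 overlaps Fam69a on the other strand by 953 bases. Rpl11 changed by -0.49 in microglia (adjusted p = 0.0122) and had a value of -0.28 in BAM (adjusted p = 0.146).

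The stalk proteins Rplp0, Rplp1 and Rplp2 recruit elongation factors to the large subunit. Rplp0 had 1477, 1789, 2080 and 2138 CPM in microglia at E10.5 and 909, 1264, 1394 and 1278 at E18.5. The microglia groups did not overlap, and the change was -0.57 (edgeR adjusted p = 0.0359). In BAM Rplp0 had 1007, 1544, 2147 and 2194 CPM at E10.5 and 820.8, 1529, 1512 and 1523 at E18.5, so that the groups overlapped, and its value of -0.38 was not called (adjusted p = 0.163). Rplp2 fell by 0.90 in microglia (adjusted p = 0.00392) and by 0.63 in BAM (adjusted p = 0.0418). Rplp1 fell by 0.54 in microglia (adjusted p = 0.0498) and had a value of -0.30 in BAM (adjusted p = 0.279). The microglia call of Rplp0 was lost without the R8 libraries of E18.5 (-0.99, adjusted p = 0.0588), and those of Rplp1 and Rplp2, in BAM too for Rplp2, were lost there and with the series as a term. In BAM the Rplp0 value was -0.29 without the R10 library of E18.5 (adjusted p = 0.323) and -1.13 without the R8 libraries, where it was called (adjusted p = 0.0276).

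Other members with known roles were followed in the same comparison. Rps19, mutated in Diamond-Blackfan anaemia, fell by 0.62 in microglia and by 0.42 in BAM (edgeR adjusted p = 0.00427 and 0.0478). Rpl38, tied to the translation of Hox messages, fell by 1.32 and 0.82 (adjusted p = 0.00167 and 0.0418). Rps27a, made as a fusion with ubiquitin, fell by 0.72 and 0.68 (adjusted p = 0.00018 and 0.000333). Rps6, the S6 kinase substrate, had values of -0.44 and -0.39 that were not called (adjusted p = 0.0738 and 0.114). Rpsa, also known as a laminin receptor, had values of -0.37 and -0.22 that were not called (adjusted p = 0.264 and 0.533). The Rps19 and Rpl38 calls of both populations were lost without the R8 libraries of E18.5 and with the series as a term, and the BAM call of Rps27a was lost without the R8 libraries. Rps6 was called lower in both populations in those 2 fits, and Rpsa in both with the series as a term.

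Paralogues and their partners are set side by side for the same change. Rps27l fell as above while its partner Rps27 fell by 0.62 in microglia (edgeR adjusted p = 0.0425) and had a value of -0.07 in BAM (adjusted p = 0.858), which was -0.39 without the R10 library of E18.5 (adjusted p = 0.206) and 0.42 without the R8 libraries (adjusted p = 0.506). Rpl7, the partner of Rpl7l1, had values of -0.44 and -0.09 that were not called (adjusted p = 0.106 and 0.788). Neither the Rpl22 nor the Rpl22l1 values were called in either population: Rpl22 had -0.19 in microglia and 0.09 in BAM, and Rpl22l1 had -0.28 and -0.52. Rps4l, which the annotation gives no coding transcript, fell by 0.78 and 0.76 (adjusted p = 0.017 and 0.0184), and its partner Rps4x had values of -0.13 and 0.21 that were not called (adjusted p = 0.678 and 0.472). Rpl3 fell by 0.70 and 0.57 (adjusted p = 0.000745 and 0.00506), and Rpl10 had values of -0.26 and -0.15 (adjusted p = 0.17 and 0.445). Rpl39 fell by 1.36 in microglia (adjusted p = 0.000708) and had a value of -0.66 in BAM (adjusted p = 0.087), which was -1.21 and called without the R10 library of E18.5 (adjusted p = 0.00123) and 0.16 without the R8 libraries (adjusted p = 0.92). Rpl3l, Rpl10l and Rpl39l, the partners of the latter 3, were under the count minimum. Without the R8 libraries of E18.5 the microglia calls of Rps27, Rps4l, Rpl3 and Rpl39 were lost, those of Rps27 and Rpl39 also with the series as a term, and the BAM call of Rps4l was lost without the R10 library. Rpl7 in microglia was called with the series as a term, and Rpl22l1 in BAM without the R10 library. Differences within a pair were not tested, and reads of near-identical copies may have been split between them.

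**Figure D3:**
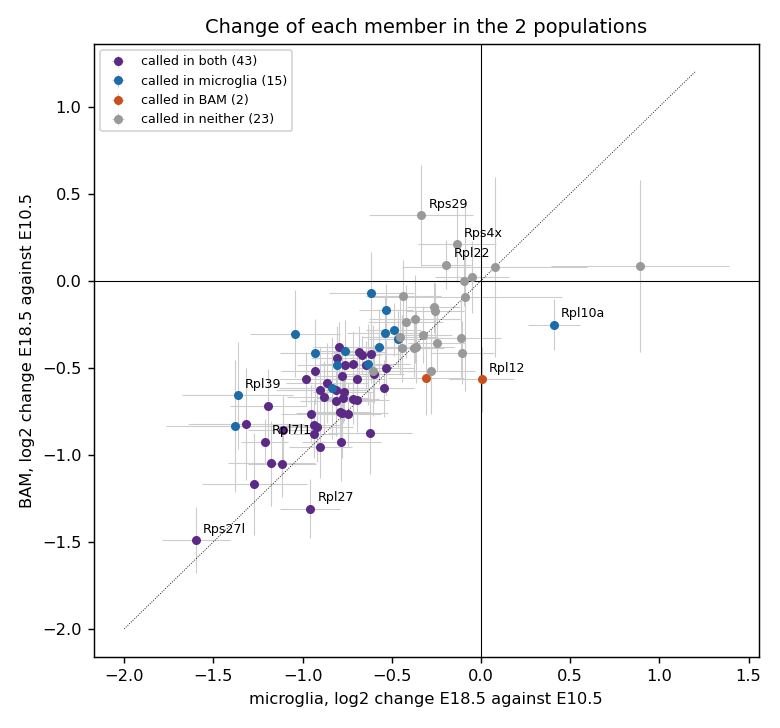
Log2 change from E10.5 to E18.5 of each member, microglia on the x axis and BAM on the y axis. Of the 83 points, 75 lie below 0 on both axes, and Rpl10a is the member with a called rise in microglia. The share of all genes below 0 on both axes is not given.

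The size of the fall went with the length of the coding sequence, and the direction of that relation depended on which E18.5 libraries were used. The annotation gives a coding length for 79 members, from 75 to 1257 bases, and the length classes were chosen after values had been seen. With all libraries, the median log2 change in microglia was -0.88 for the 10 members under 300 bases, -0.81 for the 28 of 300 to under 450, -0.66 for the 18 of 450 to under 600 and -0.45 for the 23 of 600 or more. In BAM the medians were -0.64, -0.52, -0.49 and -0.39. Other coding genes of the same classes had microglia medians of -0.24, -0.16, -0.03 and 0.12, so the order by length was also there outside the ribosome, at higher values.

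With the R10 library of E18.5 left out, the medians by class were -1.03, -0.96, -0.75 and -0.46 in microglia and -1.03, -0.77, -0.59 and -0.33 in BAM. With that library as the only one at E18.5, so that both stages were of series R10, the order turned round: -0.68, -0.72, -0.82 and -0.94 in microglia and -0.05, -0.24, -0.61 and -0.90 in BAM. A fit with the series as a term gave that same order, with -0.53, -0.54, -0.67 and -0.93 in microglia and -0.14, -0.28, -0.55 and -0.85 in BAM. Only the E18.5 groups hold both series, so that term rests on the same R10 libraries and the fit is no separate check. Which class fell most thus depended on 1 R10 library of E18.5 in each population. An effect of the series and one of that single library cannot be told apart.

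The fall of the members as a whole had the same direction in all of these fits. In microglia the median over the members was -0.70 with all libraries, -0.80 without the R10 library of E18.5, -0.77 without the R8 libraries and -0.64 with the series as a term, and 57, 59, 25 and 42 members were called lower. In BAM the medians were -0.50, -0.62, -0.51 and -0.50, with 45, 54, 18 and 29 lower. Over all genes the lower share was 14.4%, 16.2%, 6.99% and 10.55% in microglia and 14.8%, 15.9%, 7.99% and 10.9% in BAM in the same order. Lower in all 4 fits were 23 members in microglia and 13 in BAM, and 9 in both, among them Rpl14, Rpl15, Rpl19, Rpl5, Rpl7l1, Rps2 and Rps27l. The fits share libraries, and the share of all genes lower in all 4 is not given here.

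**Figure D4:**
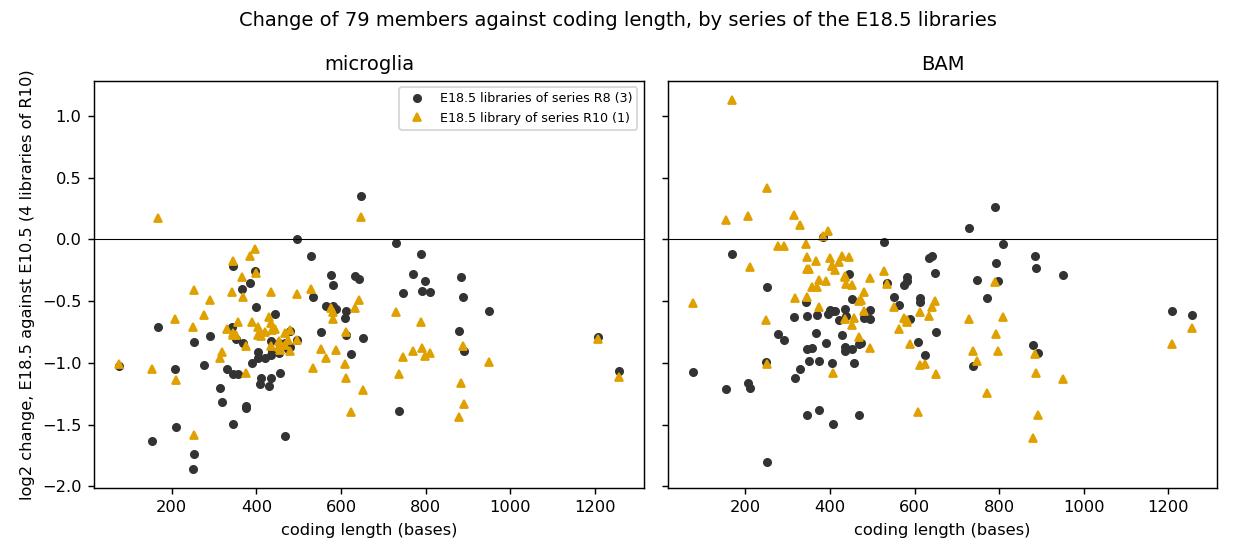
Log2 change from E10.5 to E18.5 of each of 79 members against its coding length, in each population. Changes are shown with the E18.5 libraries of series R8 and with the E18.5 library of series R10. The class medians given in the text are below 0 in both fits. The slope with length turns between them, and the R10 fit holds 1 E18.5 library a population.

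The same division appeared in the levels. Per kilobase of coding sequence, the median level was 82.8 CPM for members under 300 bases, 98.6 for 300 to under 450, 174 for 450 to under 600 and 434 for 600 or more. Spearman's rho between level per kilobase and coding length was 0.729 over the 79 members and -0.365 over 12340 other coding genes, given as a description, since the genes share the libraries and a standard ribosome holds about 1 copy of most of these proteins. By this measure the highest members were Rplp0 with 1614 CPM per kilobase, Rpl4 with 1172, Rps2 with 951, Rpl3 with 938 and Rpsa with 806. These 5 genes held 41.1% of all member counts.

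The summed CPM of the 38 members under 450 bases was 9.6 to 30.2% of that of the 23 members of 600 bases or more, with a median of 11.9%. The highest percentages were 30.2 in microglia E11.5 replicate 3, 24.9 in BAM E18.5 replicate 1, 24.7 in BAM E10.5 replicate 1 and 18.1 in microglia E18.5 replicate 1. Both E18.5 libraries in that list are the R10 ones. Over other coding genes the same ratio was 3.55 to 5.47%. The lowest value there, 3.55%, was that of microglia E18.5 replicate 1, high among the members, and of microglia E16.5 replicate 1, an R8 library with 11.6% among the members. The fit without the R10 libraries of E18.5 leaves out both BAM E18.5 replicate 1 and microglia E18.5 replicate 1.

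The early step in BAM, from E10.5 to E11.5, lies within series R10. All 83 members had values below 0, with a median of -0.45, and 44 had an unadjusted p below 0.05. Other coding genes had medians of -0.18, -0.12, -0.06 and 0.0 from the shortest to the longest length class. Shares of all genes below 0 or with such a p are not given here, and the members share the same libraries. After adjustment 6 members were lower in edgeR, against 1.44% of all genes. DESeq2 called 20 members, for which no share over all genes is given. The members lower in edgeR included Rpl27 with a log2 change of -0.76 ± 0.18 (edgeR adjusted p = 0.00985), Rps27l with -0.71 ± 0.20 (0.0373), Rpl18 with -0.63 ± 0.17 (0.0292) and Rpl17 with -0.60 ± 0.16 (0.0234). Rpl18 and Rpl17 are large-subunit proteins. Rpl27 had 28.9 to 34.5 CPM in the 3 BAM libraries at E11.5, all below the E10.5 values given above. The call of Rpl27 was lost without BAM E11.5 replicate 2, and those of Rps27l, Rpl18 and Rpl17 were lost without any 1 of the 3 BAM libraries of E11.5 or without BAM E10.5 replicate 4, and that of Rps27l also without BAM E10.5 replicate 1 or 2.

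In microglia the same step had a median of -0.20, and 3 members were lower, against 3.02% of all genes. Among them were Rpl5 with -0.60 ± 0.19 (edgeR adjusted p = 0.0451) and Rpl15 with -0.43 ± 0.12 (0.0175). The share near the background is not a result about the members. Rpl15 had 210.6 to 245.8 CPM at E10.5 and 149.8 to 175.0 at E11.5 in microglia, with no overlap. The calls of Rpl5 and Rpl15 were lost without microglia E11.5 replicate 1 or 3 or E10.5 replicate 3, and that of Rpl5 also without E10.5 replicate 2 or 4.

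From E12.5 to E18.5, 3 members were lower in microglia, against 2.74% of all genes, with a median of -0.26. Among them were Rps14 with -0.61 ± 0.16 (edgeR adjusted p = 0.0127) and Rpl14 with -0.60 ± 0.19 (0.047), and both calls were lost without microglia E12.5 replicate 2. In BAM the median was +0.19, and 2 members were higher and 1 lower, where 10.6% of all genes were called either way. The lower one was Rpl7l1 with -0.51 ± 0.14 (0.0128), which was not called without BAM E12.5 replicate 2 or 3. Rps29, a small zinc-binding protein of the small subunit, had 20.7, 26.4 and 20.4 CPM in BAM at E12.5 and 77.6, 30.2, 39.7 and 30.3 at E18.5, and Rps27 had 19.5, 19.2 and 21.7 at E12.5 and 56.4, 32.6, 36.3 and 30.5 at E18.5. In both genes the first E18.5 library, the R10 one, was the highest by far. Rps29 rose by 1.03 ± 0.32 (0.0314) and Rps27 by 1.01 ± 0.26 (0.00889), and neither was called without that library or without BAM E12.5 replicate 1.

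Between BAM and microglia of the same stage, 0 to 6 members were called by edgeR at any stage, and more under some other settings. No member was called at E10.5 or E11.5, where 4.48% and 6.66% of all genes were called by edgeR. At E10.5 none and at E11.5 1 member had an unadjusted p below 0.05, and DESeq2 called 0 at either stage. BAM were lower in 1 member at E12.5, in 4 at E14.5 and in 1 at E16.5, where 4.42%, 3.26% and 6.74% of all genes were lower. DESeq2 called 5 and 7 lower at E12.5 and E14.5, and a block of adjacent library numbers gave 5 lower at E12.5. The E16.5 split turned with other settings: with only the 2 groups fitted 6 members were higher and 2 lower in BAM, with DESeq2 4 were higher and 2 lower, and with the block 13 were higher and 2 lower. Shares of all genes called under these other settings are not given here, so none of these counts is a result about the members. The median log2 difference, BAM minus microglia, was 0.07 at E10.5, -0.20 at E11.5, -0.26 at E12.5, -0.28 at E14.5, 0.16 at E16.5 and 0.20 at E18.5.

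Rpl10a, the protein of the large subunit's L1 stalk, stood apart in this comparison. In microglia its CPM were 167.4, 192.3, 226 and 186.5 at E10.5, 198, 258.6 and 172.3 at E11.5, and 236, 294.6 and 246.7 at E12.5. They were 249.1 and 264.7 at E14.5, 265.2, 260.7 and 257 at E16.5, and 211.2, 283.4, 267.7 and 223.1 at E18.5. In BAM they were 137.6, 174.6, 213.4 and 235.2 at E10.5, 167, 194.5 and 157.7 at E11.5, and 151.3, 194.2 and 153.9 at E12.5. The groups overlapped at E10.5 and E11.5, and at E12.5 every BAM library was below every microglia library.

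Later BAM values of Rpl10a were 148.1, 147.5 and 123.6 CPM at E14.5, 147.7, 146.8 and 152.5 at E16.5, and 140.3, 181.1, 175.9 and 151.4 at E18.5. None of these reached the lowest microglia library of its stage. The log2 difference was -0.04 ± 0.15 at E10.5 and -0.30 ± 0.17 at E11.5, then -0.62 ± 0.17 at E12.5 (edgeR adjusted p = 0.0137), -0.81 ± 0.19 at E14.5 (0.00324), -0.76 ± 0.17 at E16.5 (0.00136) and -0.70 ± 0.15 at E18.5 (0.000551). As a mean over the stages it was -0.54 ± 0.07 (4.91e-08), and the calls at E14.5, E16.5 and E18.5 and of the mean held in each alternative run. The E12.5 call was lost without microglia replicate 2, BAM replicate 1 or BAM replicate 3 of that stage. No other gene in the annotation overlaps Rpl10a, and its 2 pseudogene entries held 3697 counts, against 170744 for Rpl10a.

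Rpl10a was also the only member whose change from E10.5 to E18.5 was called different between the populations, where 3.55% of all genes were called lower in BAM. It rose by 0.41 ± 0.15 in microglia (edgeR adjusted p = 0.0284) and had a value of -0.25 ± 0.15 in BAM (0.177), a difference of -0.66 ± 0.21 (0.0476). That call lay at the threshold and was lost in 14 of 25 alternatives, 10 of which left out 1 library; over all 25 the value ran from -0.78 to -0.55. The rise in microglia was not called in the fits without the R10 or without the R8 libraries of E18.5 or with the series as a term, and was lost without any 1 of 5 libraries. For the change from E12.5 to E18.5, no member differed between the populations by edgeR, where 2.19% of all genes were called either way. Of the members 73 had values above 0 there, with a median of 0.41, 23 had an unadjusted p below 0.05, and DESeq2 called 8. Over all genes the matching shares are not given here.

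**Figure D5:**
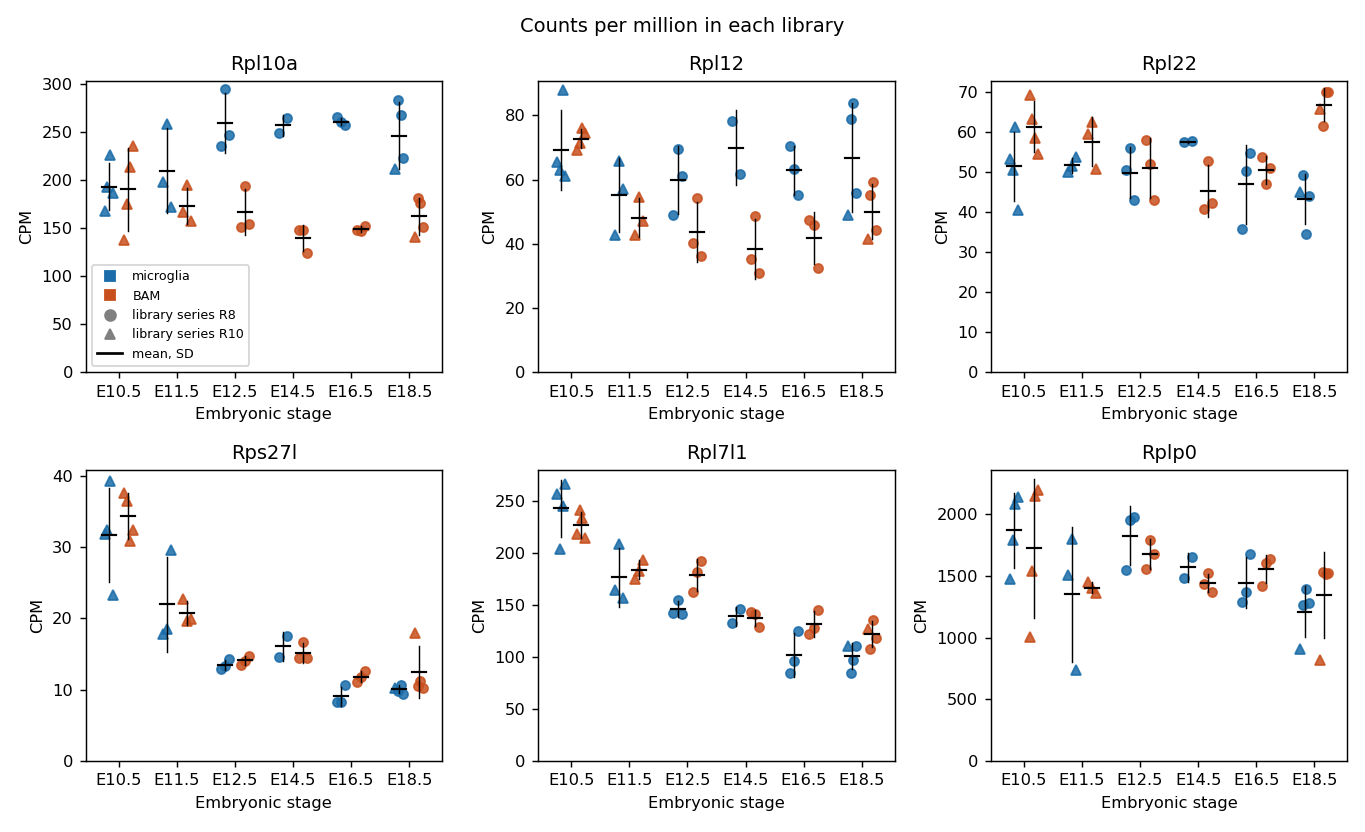
CPM of single members in every library by stage, microglia and BAM side by side. Rpl10a of microglia and BAM does not overlap from E12.5 on, and Rps27l and Rpl7l1 are lower at E18.5 than at E10.5 in both populations.

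At E14.5 the members lower in BAM included Rpl12 and Rps24. Rpl12, a protein at the base of the stalk, had 78.2 and 61.8 CPM in microglia and 35.2, 48.7 and 30.9 in BAM. The groups did not overlap, and the difference was -0.80 ± 0.24 (edgeR adjusted p = 0.0289). Rps24 differed by -0.67 ± 0.21 (0.0497), with 2 microglia libraries at this stage. Both calls were lost without microglia replicate 1, BAM replicate 1 or BAM replicate 3.

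At E18.5 BAM were higher in 5 members and lower in Rpl10a, where 15.5% of all genes were called either way. Of the members, 69 of 83 had values above 0, and the share of all genes above 0 is not given here. Median differences by length class, shortest first, were 0.39, 0.23, 0.16 and 0.15 for members. For other coding genes they were 0.24, 0.22, 0.1 and 0.0. The block gave 16 higher and 2 lower at E18.5, and DESeq2 12 higher and 2 lower, again without a share over all genes beside them. Rpl22, a large-subunit protein that mouse cells can replace by Rpl22l1, had 45.2, 49.3, 34.6 and 44.0 CPM in microglia and 66.0, 61.6, 70.2 and 70.0 in BAM, with no overlap. Its difference was 0.53 ± 0.14 (edgeR adjusted p = 0.00641) and was called in each alternative run. Rps14, of the small-subunit platform, had 69.2, 68.3, 78.3 and 64.7 CPM in microglia and 106.9, 98.3, 111.8 and 95.7 in BAM, a difference of 0.45 ± 0.15 (0.0307).

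Rpl15, a core large-subunit protein, had 127.2, 124.3, 155.8 and 128.4 CPM in microglia and 168.4, 193, 190.5 and 179.8 in BAM, a difference of 0.35 ± 0.11 (edgeR adjusted p = 0.0254). Rpl36 had 13.5, 8.98, 15.1 and 12.9 CPM in microglia and 34.3, 20.0, 23.6 and 16.1 in BAM, a difference of 0.79 ± 0.25 (0.0278), and Rpl23 had 44.0, 42.8, 43.9 and 37.6 CPM in microglia and 75.2, 55.4, 61.5 and 50.9 in BAM, a difference of 0.43 ± 0.15 (0.0446). For Rps14, Rpl15, Rpl36 and Rpl23 each BAM library was above each microglia library, and the R10 library of BAM was the highest in Rpl36 and Rpl23. With the R10 libraries of E18.5 left out, 2 members were higher and 1 lower. The calls of Rps14, Rpl15, Rpl36 and Rpl23 were each lost without microglia replicate 2 or 4, and without between 1 and 4 of the other libraries.

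As a mean over the 6 stages, 3 members were higher and 8 lower in BAM, where 28.2% of all genes were called either way. The higher members included Rps4l with 0.36 ± 0.12 (edgeR adjusted p = 0.0198) and Rpl15 with 0.14 ± 0.05 (0.0306). The 5 lower members with the largest differences were Rpl10a as above, Rpl12 with -0.41 ± 0.09 (0.000224), Rps12 with -0.37 ± 0.10 (0.00509), Rpl27 with -0.30 ± 0.08 (0.0022) and Rps24 with -0.28 ± 0.08 (0.00486). The called members are 11 of 83, and the difference of that share from the share over all genes was not tested.

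The rest of the translation apparatus was read through lists fixed with earlier results of these data known. Of 40 ribosome assembly genes, 35 were lower at E18.5 than at E10.5 in microglia and 36 in BAM, with medians of -1.07 and -1.32. Dkc1, the pseudouridine synthase of ribosomal RNA, fell by 1.94 ± 0.12 and 2.15 ± 0.13, and the nucleolar proteins Ncl and Npm1 fell by 2.01 and 1.98 in microglia and by 1.82 and 1.67 in BAM. Of 30 initiation factor genes, 26 and 23 were lower and 1 and 2 higher, and of 8 elongation genes 7 and 6 were lower. Of 77 mitochondrial ribosome genes tested, 52 and 56 were lower. The RNA polymerase I list had 6 and 7 of 14 genes lower, with 1 higher in microglia. Over all genes 14.4% and 14.8% were lower in the same comparison. The fits that handle the series were run for these lists after values had been seen. Without the R8 libraries of E18.5, 27 and 28 assembly genes, 23 and 23 initiation, 4 and 6 elongation, 31 and 37 mitochondrial ribosome and 3 and 4 RNA polymerase I genes were lower. With the series as a term these counts were 34 and 33, 27 and 23, 6 and 6, 49 and 50, and 5 and 6, where 10.55% and 10.9% of all genes were lower. The calls of Dkc1, Ncl and Npm1 held in each of these fits.

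Regulators of ribosome synthesis were called in both directions. Of 12 genes of the mTORC1 and TOP list, 4 and 3 were lower and 2 and 3 higher, which is 33.3% and 25% lower and 16.7% and 25% higher, against 14.4% and 14.8% lower and 20.9% and 22.8% higher over all genes. With the series as a term 1 and 0 of them were lower and 1 and 0 higher. Larp1 fell by 0.49 (edgeR adjusted p = 0.0291) and 0.54 (0.0152), and both calls were lost without the R8 libraries and with the series as a term. Of 10 Myc network genes, 3 and 7 were higher and 1 lower in either population, and with the series as a term 3 and 3 were higher. Myc itself, an activator of ribosomal genes, fell by 0.58 in microglia (0.0179) and by 1.198 in BAM (7.1e-06). The Myc calls were lost without the R8 libraries, and in microglia also with the series as a term. Of the 4 other components of the cytosolic ribosome, 1 was lower in microglia and 2 in BAM. Rack1, which sits on the small subunit, fell by 0.78 and 0.80, in each of these fits, and Fau, which encodes Rps30 fused to a ubiquitin-like protein, had values of -0.04 and 0.16. Rpl36al, a paralogue of Rpl36a, had 1.12, 1.73, 0.622 and 1.49 CPM in BAM at E10.5 and 0.536, 0, 0.133 and 0.200 at E18.5. It changed by -2.50 ± 0.90 in BAM (adjusted p = 0.0279), a call lost without the R8 libraries and with the series as a term, and had a value of -0.40 in microglia (0.762).

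Markers of other cells and of division moved between the same stages. All 5 mitosis genes were lower at E18.5 in both populations, and their summed level went from 1920 to 1995 CPM to 884 to 1064 in microglia and from 1967 to 2225 CPM to 569 to 821 in BAM. All 4 mesenchymal and mural markers were higher, from sums of 1.28 to 7.67 CPM to 61.9 to 139 in microglia and of 3.07 to 18.98 to 101 to 361 in BAM, with Dcn at 0 in every BAM library of E10.5. Of 5 neural markers 3 were higher in both and 1 lower in BAM, from sums of 91.3 to 116 CPM to 128 to 229 and of 51.7 to 73.4 to 131 to 331. Of 4 endothelial markers 3 were higher in both, from sums of 51.8 to 70.7 CPM to 91.6 to 153 and of 28.4 to 40.3 to 48.9 to 246. Of 6 erythroid markers 3 were higher and 1 lower in both, from sums of 29.6 to 85.4 CPM to 106.6 to 155.0 and of 26.9 to 52.9 to 69.5 to 134.5. Of 3 mast cell markers 1 and 2 were higher, from sums of 0.22 to 1.42 CPM to 2.51 to 7.99 and of 0 to 0.74 to 8.66 to 25.9, with Mcpt4 at 0 in every microglia library and in every BAM library of E10.5.

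The progenitor, monocyte and granulocyte sums were lower at E18.5 in every microglia library. Of 3 progenitor markers 2 were lower in microglia and 1 in BAM, from sums of 160.4 to 308.4 CPM to 93.5 to 112.9 and of 24.7 to 43.1 to 10.9 to 27.7. Of 5 monocyte and granulocyte markers tested 1 was lower in microglia and none called in BAM, from sums of 45.7 to 115.8 CPM to 4.56 to 10.3 and of 3.11 to 5.15 to 0.18 to 3.66, with Elane at 0 in every microglia library of E18.5. With the series as a term, 4 and 5 mitosis genes were lower, 3 and 3 mesenchymal, 2 and 2 endothelial and 3 and 3 neural markers higher, and 1 and 1 progenitor markers lower. The part of these markers in the fall of the members was not tested.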

How the data were processed

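The authors deposited a table of counts per gene for 39 libraries, made per the labels' protocols with a SMART-seq2 protocol, which does not mark strand, and paired-end sequencing. STAR and featureCounts are the tools and GRCm38 the genome build named per the submitters' processing notes; versions, annotation release and strand setting are not given in the sources used here. Counts of 2 (49977 cells of the table) were more frequent than counts of 1 (21280). Depth was 10.7 M to 47.2 M counts per library; counts are not molecules, so depth limits members near the minimum most.

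The deposited counts were filtered with filterByExpr (22061 genes) and fitted in edgeR 4.0.16 (R 4.3.3) by quasi-likelihood with TMM factors and 1 coefficient per group (27 residual degrees of freedom), with Benjamini-Hochberg adjustment over all tested genes at 0.05. Fold changes are log2. CPM are a gene's counts divided by a library's total gene counts in M. The procedure was tested on simulated data. The members and lists were chosen with earlier results of these data known.

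Members named per comparison were the 5 largest called changes in each direction whose average level reached log2 CPM 4, plus paralogues with partners, stalk and 5S proteins, Rps6, Rps19, Rpsa, Rpl38 and Rps27a. From other lists up to 3 genes by smallest p were named, plus translation and Myc genes set by name; some members are not reported here. Alternatives were DESeq2 1.42.0, its size factors, no filter, only the groups compared, members left out of the scaling, adjacent library numbers as a block, the library-number series, and each library left out. Coding and exon lengths are from GENCODE M21. Replicate numbers are accession order. Correlations of log CPM between libraries of a group were 0.958 to 0.983.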

Additional observations from a re-analysis of the deposited data

Results flagged for a closer look

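In groups of 4 libraries, 152 groups of values of 37 named members and the member share were searched for a library far from the others (above Dixon's 95% critical value), which chance gives in about 1 of 20 groups, and 8 were found. Microglia E10.5 replicate 3 was high in 4 members: Rpl12 with 87.8 CPM (others 61.1 to 65.4), Rpl18 with 147.3 (106.9 to 108.4), Rpl27 with 69.7 (49.4 to 52.4) and Rpl36 with 36.3 (22.7 to 25.0). Microglia E18.5 replicate 3 was high in Rpl15, with 155.8 CPM against 124.3 to 128.4.

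BAM E18.5 replicate 1, the R10 library of its group, was high in the short members Rpl39, with 20.9 CPM against 7.20 to 8.85, and Rps27l, with 17.95 against 10.2 to 11.1. It was low in the long member Rplp0, with 820.8 CPM against 1512 to 1529.

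The change of Rpl10a from E10.5 to E18.5 differed between the populations by -0.66 (BAM minus microglia, edgeR adjusted p = 0.0476).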

How the results depend on the processing

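Of 41 changes of named members, 17 were called in every alternative run and 0 changed direction. With DESeq2 the number of members called was 5 at E12.5, 7 at E14.5, 6 at E16.5 (4 higher, 2 lower) and 14 at E18.5 (12 and 2) between the populations. It was 5 and 11 in microglia (E11.5 against E10.5 and E18.5 against E12.5), 20 and 9 (6 and 3) in BAM for the same steps, and 8 for the population difference in change since E12.5. With size factors of the DESeq2 type, 3 members were called at E12.5, 7 at E14.5, 11 in BAM from E10.5 to E11.5, 5 (4 and 1) from E12.5 to E18.5, and 1 for the difference since E12.5. With only the compared groups fitted, 0 were called at E12.5, 1 at E14.5, 8 (6 and 2) at E16.5, 1 for the E11.5 step in microglia and 1 in BAM, 4 (1 and 3) in BAM from E12.5, and 0 for the difference in change since E10.5. Without a filter, 2 (1 and 1) were called at E16.5 and 1 in microglia from E10.5 to E11.5. With members out of the scaling, 0 were called for the difference since E10.5. For these settings and the block below, shares over all genes are not given here, so the counts are no result about the members.

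A replicate block of adjacent library numbers, which the labels do not say are pairs, gave 5 members at E12.5, 15 (13 and 2) at E16.5, 18 (16 and 2) at E18.5, 16 (9 and 7) for the mean, 6 for the difference since E12.5 and 2 for that since E10.5. Without the R10 libraries of E18.5, 3 (2 and 1) were called at E18.5, 1 (0 and 1) in BAM from E12.5 to E18.5 and 0 for the difference since E10.5. Without the R8 libraries, 25 were called in microglia and 19 (1 and 18) in BAM from E10.5 to E18.5, and 0 for the difference. Of 114 counts of genes called in the other lists under the 3 fits that handle the series, chosen after seeing the data, 96 were within 1.5 times the count with all libraries, 18 were lower and 0 turned direction. The median member share was 1.13% with members of at least 100 CPM, against 1.34%.

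With each library left out in turn, counts ran from 0 to 0 at E10.5 and E11.5, 0 to 2 at E12.5, 1 to 7 at E14.5, 1 to 3 at E16.5, 2 to 10 at E18.5 and 8 to 13 for the mean. At E16.5, 3 (2 and 1) were called without microglia replicate 3, and at E18.5, 3 (1 and 2) without microglia replicate 4. In microglia they ran from 0 to 5 for the E11.5 step, 0 to 7 from E12.5 and 51 to 58 from E10.5, and in BAM from 2 to 11, 1 to 4 and 34 to 52. In BAM from E12.5, 1 was called without E18.5 replicate 1 and 2 without E12.5 replicate 1. The differences in change gave 0 to 2 since E12.5 and 0 to 1 since E10.5. The cause was not tested for any of these.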
